A study of Rattus norvegicus with 3 samples.

Results

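The genes described here encode 8 calcium-binding and membrane-binding proteins of injured tissue: S100a4, S100a6, S100a10, S100a11, Anxa1, Anxa2, Anxa3 and Anxa5. They were chosen by symbol, with earlier results of these data known. All 8 were found among the 32883 genes of the files, and each symbol stood on 1 row. All 8 passed the filter on low counts. The tissue was retina of rats of the Sprague-Dawley strain, taken at postnatal day 60, and its RNA was depleted of ribosomal RNA, with 1 library per group. The CTL library is labelled as untreated, whereas the protocol also describes a sham operation with a needle in the anterior chamber at 2.66 kPa, and the sources used here do not settle which of these the CTL retina had. The HIOP library came from retina collected 12 h after 60 min of intraocular pressure at 110 mmHg, a pressure that blocks retinal blood flow until it is lowered again. The HIOP_GSK library was made after that procedure with a drug, named only as GSK, injected into the anterior chamber 24 h before the ischemia. No library of a drug vehicle is described, and how many animals each library holds is not given in the sources used here.

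S100 proteins are small EF-hand proteins, most of which change shape on binding calcium and then attach to partner proteins. Annexins bind the phospholipids of membranes when calcium rises, and several gather at torn plasma membrane and help to close it. Members of the families can bind each other: S100A10, a member that no longer needs calcium, joins annexin A2 in a complex beneath the plasma membrane, and S100A11 can bind annexin A1. In neural tissue several of these genes are known from reactive glia, blood vessels and leukocytes.

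The 8 genes together had 2845 counts in CTL, 12470 in HIOP and 13026 in HIOP_GSK, or 0.0177%, 0.0724% and 0.0861% of all counts. Their summed scaled count was 4.12-fold higher in HIOP than in CTL (3.96 to 4.29), and HIOP_GSK exceeded HIOP by 1.18-fold (1.15 to 1.20). Scaled counts (CPM) are counts relative to the adjusted library total, and the range beside each ratio is its exact 95% interval. That interval covers counting error alone, because 1 library per group leaves the spread between animals unmeasured and allows no test of the conditions. In bulk RNA, a change in the number of cells of a type and a change in RNA per cell cannot be told apart.

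A gene is called higher or lower here at a ratio of at least 2-fold in that direction. In HIOP over CTL, 7 of the 8 genes were called higher and 0 lower. Of all 15543 genes compared, 9.0% were called higher and 8.04% lower. The 8 were chosen with earlier results of these data known, so setting them beside such shares is no test. The median log2 ratio of the 8 genes was 1.99, against 0.0042 for all genes compared. In HIOP_GSK over HIOP, 2 of the 8 were called higher, S100a4 and S100a6, and 0 lower, where the shares of all genes were 4.56% and 1.69%. The median of the 8 was then 0.18, against -0.0024 for all genes. In HIOP_GSK over CTL all 8 were called higher (10.4% of all genes were, and 6.32% were called lower), with a median of 2.07. Each library enters 2 of these comparisons, so they are not independent of each other. The log2 ratio of a gene in HIOP_GSK over CTL is the sum of its other 2 log2 ratios and adds no separate result.

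**Figure D1:**
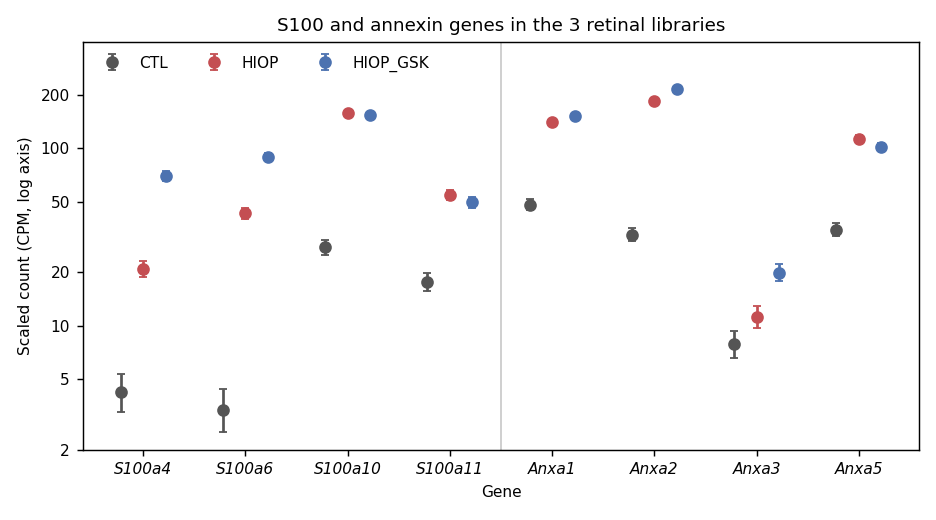
Scaled counts (CPM, log axis) of the 8 genes in the CTL, HIOP and HIOP_GSK libraries, with 95% Poisson intervals that cover counting error only. All 8 genes are lowest in CTL, and S100a4, S100a6 and Anxa3 are well above their HIOP value in HIOP_GSK, while the other 5 lie close to it.

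S100a10 and Anxa2 encode the subunits of the complex that links the plasma membrane to the actin cortex and docks plasminogen and its activator at the cell surface. S100a10 had 445 counts in CTL, 2723 in HIOP and 2359 in HIOP_GSK. Its scaled count was 5.75-fold higher in HIOP than in CTL (5.20 to 6.37), and HIOP_GSK differed from HIOP by a ratio of 0.975 (0.922 to 1.03), within counting error. Anxa2 had 526, 3173 and 3308 counts in the same order. It was 5.67-fold higher in HIOP than in CTL (5.17 to 6.23), and its ratio in HIOP_GSK over HIOP was 1.17 (1.12 to 1.23). The partners thus differed from CTL by nearly the same ratio: the log2 ratio of S100a10 minus that of Anxa2 was 0.021 in HIOP over CTL (-0.18 to 0.22). With the drug the log2 ratio of S100a10 was lower than that of Anxa2 by a small step, -0.27 (-0.37 to -0.16). Per transcript length, as deposited TPM, S100a10 stood at 2.32, 2.37 and 1.93 times the level of Anxa2 in CTL, HIOP and HIOP_GSK.

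S100a11 and Anxa1 are the other pair compared here, and their proteins are not exclusive partners. S100A11 takes part in membrane resealing and cell growth control, and annexin A1 also acts outside the cell, where it restrains leukocyte entry through formyl peptide receptors. S100a11 had 286, 934 and 759 counts in CTL, HIOP and HIOP_GSK, and was 3.07-fold higher in HIOP than in CTL (2.69 to 3.52). Its ratio in HIOP_GSK over HIOP was 0.914 (0.830 to 1.01), within counting error. Anxa1 had 777, 2404 and 2324 counts, was 2.91-fold higher in HIOP than in CTL (2.68 to 3.16), and differed by a ratio of 1.09 in HIOP_GSK over HIOP (1.03 to 1.15). Both genes were lowest in CTL and at similar levels in the injured libraries. Their log2 ratios in HIOP over CTL differed by 0.078 (-0.15 to 0.30). The pairs themselves differed in size: the log2 ratio of S100a10 exceeded that of S100a11 by 0.91 (0.67 to 1.15), and that of Anxa1 was below that of Anxa2, at a difference of -0.96 (-1.14 to -0.79). Anxa1 had more counts than Anxa2 in CTL and fewer in HIOP and HIOP_GSK.

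S100a4 and S100a6 had the fewest counts of the 8 in CTL and the highest ratios in HIOP_GSK over CTL. S100A4 binds non-muscle myosin and is a gene of motile cells, fibroblasts and macrophages, and S100A6, also called calcyclin, marks growing and reactive cells. S100a4 had 68 counts in CTL, 359 in HIOP and 1063 in HIOP_GSK. It was 4.96-fold higher in HIOP than in CTL (3.82 to 6.53) and HIOP_GSK exceeded HIOP by a further 3.33-fold (2.95 to 3.77), which made HIOP_GSK 16.5-fold higher than CTL (12.9 to 21.5). S100a6 had 54, 737 and 1362 counts. It was 12.8-fold higher in HIOP than in CTL (9.73 to 17.2), the largest ratio of the 8, and HIOP_GSK exceeded HIOP by 2.08-fold (1.90 to 2.28). The interval of that last ratio reaches below 2-fold. HIOP_GSK was 26.7-fold higher than CTL for S100a6 (20.3 to 35.7). Compared with each other, the log2 ratio of S100a4 minus that of S100a6 was -1.37 in HIOP over CTL (-1.92 to -0.82) but 0.68 in HIOP_GSK over HIOP (0.46 to 0.90).

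Anxa5 and Anxa3 were the remaining annexins. Annexin A5 coats membranes that expose phosphatidylserine and forms ordered arrays there, and annexin A3 is abundant in neutrophils and in some glia. Anxa5 had 562, 1948 and 1547 counts in CTL, HIOP and HIOP_GSK. It was 3.26-fold higher in HIOP than in CTL (2.97 to 3.59), and its ratio in HIOP_GSK over HIOP was 0.893 (0.835 to 0.956). Anxa3 had 127, 192 and 304 counts and was the 1 gene of the 8 below 2-fold in HIOP over CTL, at 1.42-fold (1.13 to 1.79). In HIOP_GSK it was 1.78-fold higher than in HIOP (1.48 to 2.15) and 2.53-fold higher than in CTL (2.05 to 3.14). Anxa3 was lowest in CTL and highest in HIOP_GSK, as S100a4 and S100a6 were.

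**Figure D2:**
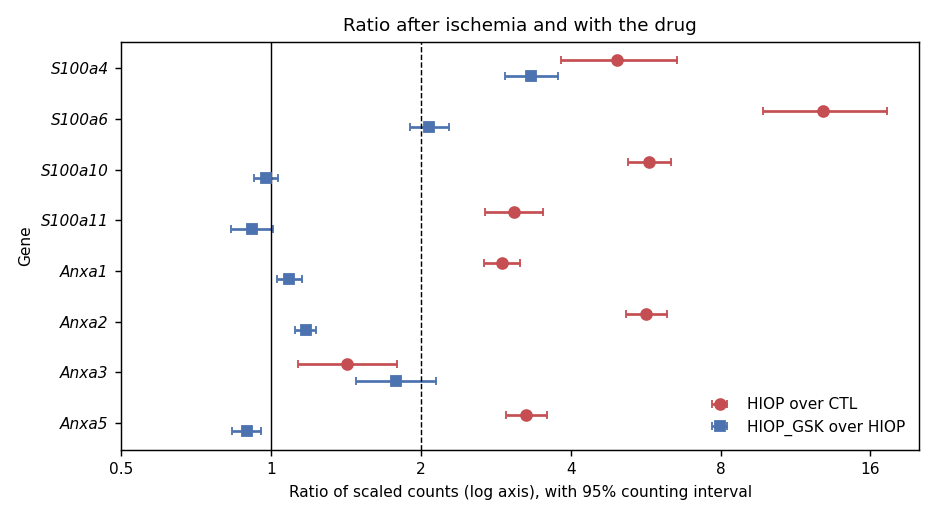
Ratio of scaled counts (log axis) for each gene in HIOP over CTL (circles) and HIOP_GSK over HIOP (squares), with exact 95% counting intervals; the solid line is no difference and the dashed line 2-fold. In HIOP over CTL all genes except Anxa3 lie to the right of the dashed line, and in HIOP_GSK over HIOP S100a4 (3.33) and S100a6 (2.08) do.

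The order of the transcript levels, which were compared per length on the deposited TPM, differed between the libraries. In CTL the order was S100a10 (86.8 TPM), Anxa1 (51.97), Anxa2 (37.4), Anxa5 (30.2), S100a11 (28.8), S100a6 (21.8), S100a4 (14.7) and Anxa3 (2.59). Counting intervals overlapped there between Anxa5 and S100a11, S100a11 and S100a6, and S100a6 and S100a4. That of S100a6 (16.4 to 28.5) also overlapped that of Anxa5 (27.8 to 32.8). In HIOP the TPM of S100a10 was 466, S100a6 was next at 241, and Anxa2 (197) had passed Anxa1 (142), followed by S100a11 (107), Anxa5 (85.9), S100a4 (69.8) and Anxa3 (3.68), with no overlap between neighbours. In HIOP_GSK S100a6 was first at 552 TPM and S100a10 next at 457. Anxa2 (237) and S100a4 (236) came next with overlapping intervals, and Anxa1 followed at 165. S100a11 (88.3) and Anxa5 (79.6) also overlapped, and Anxa3 was last again at 6.86. S100a6 thus went from the sixth to the first place, although its place in CTL was not fixed within counting error. Anxa3 was the last in all 3 libraries.

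S100a4 had the highest ratio of the 8 in HIOP_GSK over HIOP. Anxa2 was the 1 gene of the 7 searched with a match to the motif of AP-1, the FOS and JUN transcription factors. The promoters of these genes are therefore shown. Each is the 250 bases before the annotated start, from RefSeq on the build GRCr8, 5′ to 3′ on the strand of the gene, with matches in capitals. The S100a4 window is chr2:178388279-178388528 on the plus strand (57.6% G or C), with TATAAA in capitals, 31 to 26 bases before the start. The Anxa2 window is chr8:78986002-78986251 on the plus strand (67.2% G or C), with TGAGTCA in capitals, 123 to 117 bases before the start, and TATAAA, 45 to 40 bases before it.
S100a4: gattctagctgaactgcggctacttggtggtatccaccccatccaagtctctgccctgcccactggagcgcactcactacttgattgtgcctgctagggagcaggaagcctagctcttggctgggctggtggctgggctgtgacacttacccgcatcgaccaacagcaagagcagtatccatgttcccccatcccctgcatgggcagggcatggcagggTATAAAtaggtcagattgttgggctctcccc
Anxa2: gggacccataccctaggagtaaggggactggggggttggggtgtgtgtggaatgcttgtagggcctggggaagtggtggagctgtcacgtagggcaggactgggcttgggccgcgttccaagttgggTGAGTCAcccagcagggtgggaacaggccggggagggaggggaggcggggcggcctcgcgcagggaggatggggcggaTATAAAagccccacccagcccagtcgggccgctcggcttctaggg
Neither window overlaps an annotated gene. RefSeq promoters were matched for 7 of the 8 genes (not S100a10), and 4 motifs were searched on both strands. TGANTCA (AP-1) was in 1 of the 7 windows and in 6.34% of the 33469 windows of that length in the table. TATAAA was in 3 of the 7, those of S100a4, Anxa1 and Anxa2, and in 12.9% of all. TTCNNNGAA (STAT) was in 0 of the 7 and 7.67% of all windows, and an NF-kB motif, GGGA and TTCC with any 2 bases between them, in 0 of the 7 and 1.08% of all. A match describes the letters in these windows and was not compared with any binding data.

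The other S100 genes differed among themselves. Of 15 other S100 genes listed, 13 were in the files and 8 passed the filter. In HIOP over CTL 3 of these 8 were called higher and 2 lower, and their median log2 ratio was 0.30. S100a8 and S100a9, the paired alarmins of neutrophils and monocytes, had 0 and 4 counts in CTL, 405 and 984 in HIOP, and 306 and 579 in HIOP_GSK. Against a floor of 3 counts per library, S100a8 was at least 127-fold higher in HIOP than in CTL. Unlike S100a4 and S100a6, both were lower in HIOP_GSK than in HIOP, S100a8 by 1.18-fold (1.01 to 1.37) and S100a9 by 1.51-fold (1.36 to 1.68). S100b, the S100 gene of astrocytes and Müller glia, had 782, 330 and 316 counts and was 2.52-fold lower in HIOP than in CTL (2.21 to 2.88). S100a16 had 234, 377 and 522 counts, a ratio of 1.51 in HIOP over CTL (1.28 to 1.79) and of 1.56 in HIOP_GSK over HIOP (1.36 to 1.78). S100a3, with 8, 36 and 35 counts, was 4.23-fold higher in HIOP (1.93 to 10.5). S100a13 had 82, 87 and 81 counts. S100a7l2, with 87, 23 and 9 counts, was the 1 S100 gene above the filter that was called lower in HIOP_GSK over HIOP, at 2.27-fold (1.01 to 5.58).

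Among 8 other annexin genes, 6 passed the filter, and 1 of these was called higher in HIOP over CTL. That was Anxa7, with 323, 830 and 720 counts and a ratio of 2.42 (2.12 to 2.76). Anxa4, with 161, 341 and 309 counts, was just under the limit at 1.99 (1.65 to 2.42). Anxa6, a large annexin of the plasma membrane and endosomes, went the other way and was 1.53-fold lower in HIOP than in CTL (1.38 to 1.70), with 933, 648 and 784 counts. Anxa11 had 379, 473 and 561 counts, and Anxa9 had 154, 168 and 132. Anxa8, a gene of surface epithelia, had 68, 46 and 95 counts, and HIOP_GSK exceeded HIOP by 2.32-fold (1.62 to 3.38). The median log2 ratio of the 6 was 0.13 after ischemia (HIOP over CTL) and 0.22 with the drug (HIOP_GSK over HIOP).

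**Figure D3:**
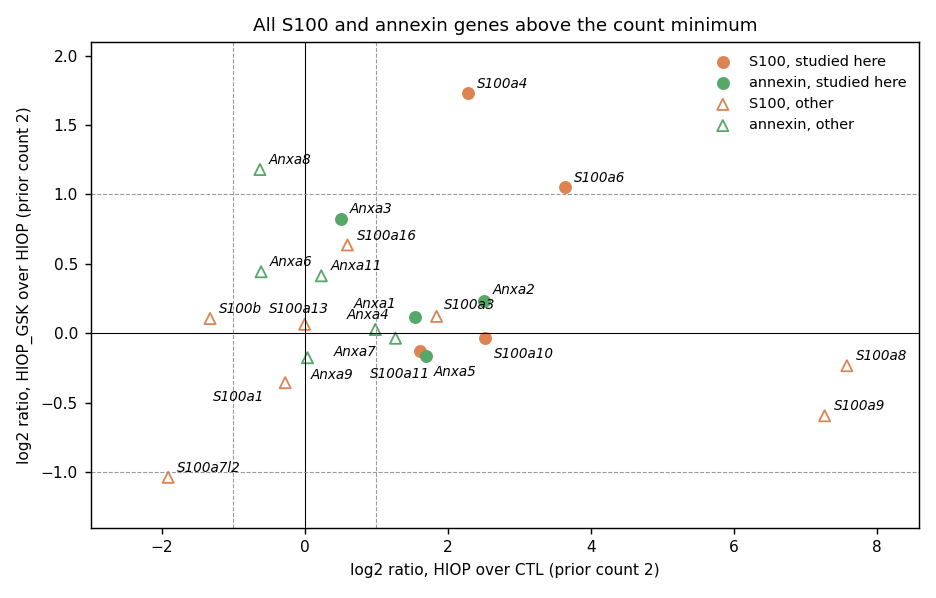
Log2 ratio in HIOP over CTL (horizontal) against HIOP_GSK over HIOP (vertical), with a prior count of 2, for every S100 (orange) and annexin (green) gene above the count minimum; filled circles are the 8 genes described here, open triangles the other genes, dashed lines 2-fold. S100a4 and S100a6 stand at the upper right, S100a8 and S100a9 at the far right below 0, and S100b and S100a7l2 at the left; the axes share the HIOP library.

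Most S100 genes lie on chromosome 2 in the rat, in the RefSeq gene order of GRCr8. S100a4, S100a5 and S100a6 are direct neighbours there, followed by S100a7a, S100a8 and S100a9, and none of the 8 genes overlaps another annotated gene. Along this run genes with counts alternated with genes that had almost none. S100a5, between S100a4 and S100a6, had 0, 1 and 0 counts in CTL, HIOP and HIOP_GSK, and so did S100a7a, between S100a6 and S100a8. S100a11 and S100a10 lie further along the chromosome, 77 annotated genes after the previous S100 gene, with 1 pseudogene between them. At the other end of the run S100a1 and S100a13 had log2 ratios of -0.28 and -0.0034 in HIOP over CTL.

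**Figure D4:**
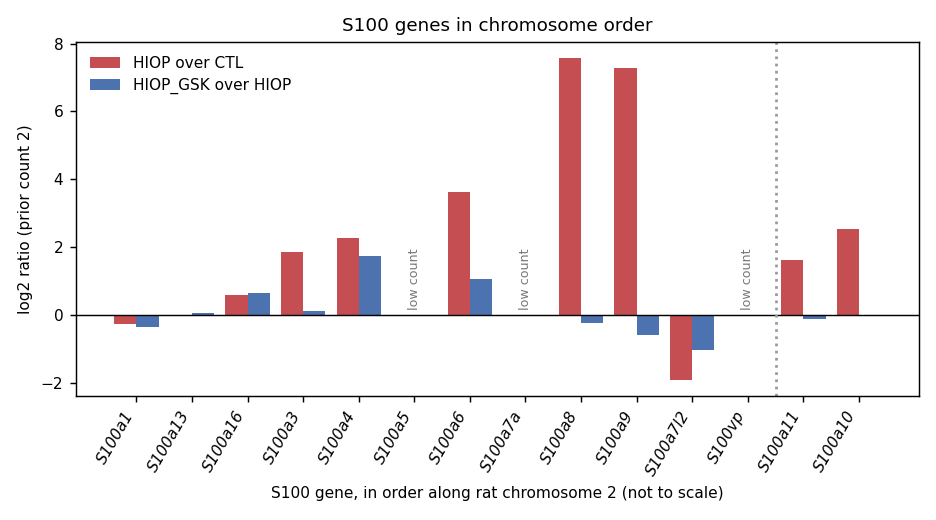
Log2 ratio (prior count of 2) of the S100 genes in the files, in their order along rat chromosome 2 and not to scale, in HIOP over CTL (red) and HIOP_GSK over HIOP (blue); genes under the count minimum are marked, and the dotted line marks the gap before S100a11 and S100a10. In HIOP_GSK over HIOP the bars of S100a4 (1.73) and S100a6 (1.05) point up while those of S100a8 (-0.23) and S100a9 (-0.59) point down.

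Genes that act with these proteins were described from lists that, like the 8 genes, were chosen with earlier results of these data known. Their counts are therefore no test, also beside the shares of all genes compared. In HIOP over CTL those shares were 9.0% higher and 8.04% lower, and in HIOP_GSK over HIOP 4.56% and 1.69%. In the membrane repair list, which holds ferlins, calpains, caveolar proteins and the ESCRT complex, 18 of 20 genes were in the files and 17 passed the filter. Of these, 4 were called higher and 1 lower in HIOP over CTL, and the median log2 ratio was 0.13. Myof, the ferlin myoferlin, had 231, 1064 and 1520 counts and was 4.33-fold higher in HIOP than in CTL (3.75 to 5.01), and HIOP_GSK exceeded HIOP by 1.61-fold (1.49 to 1.74). Trim72, a repair protein that caps membrane wounds in muscle, was 3.19-fold higher in HIOP (2.15 to 4.86) from 33 and 112 counts, and Cavin1, a coat protein of caveolae, was 2.52-fold higher (2.33 to 2.73). Cav1, the main protein of caveolae, was 2.25-fold lower (2.09 to 2.42). In HIOP_GSK over HIOP 0 of the 17 passed 2-fold in either direction, and the median was 0.082. Capn1, a calcium-activated protease, had 140 and 237 counts there, a ratio of 1.90 (1.54 to 2.36), and Dysf, dysferlin, had 180 and 249, a ratio of 1.56 (1.28 to 1.90). Cav1 had 1080 and 1372 counts and a ratio of 1.43 (1.32 to 1.55). The ESCRT genes Chmp2a, Chmp3, Vps4a, Vps4b and Tsg101 had log2 ratios between 0.090 and 0.13 in HIOP over CTL, and those of their partners Pdcd6 and Pdcd6ip were 0.74 and 0.59.

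The list of receptors and partners had 12 of 18 genes above the filter, 5 of them called higher and 0 lower in HIOP over CTL, and its median was 0.59. They included Plat, Plau and Plaur of the plasminogen system, whose plasminogen the complex of S100A10 and annexin A2 binds, and Myh9, the myosin heavy chain that S100A4 binds. Plat, tissue plasminogen activator, had 269, 1775 and 966 counts and was 6.20-fold higher in HIOP than in CTL (5.45 to 7.08). Plau, urokinase, was 29.6-fold higher (15.4 to 65.3) from 9 counts in CTL, or 63.8-fold on the deposited TPM. Plaur, the urokinase receptor, had 1 count in CTL and 381 in HIOP, and a ratio of 358 (63.9 to 14186), or 85.1 on the deposited TPM. In HIOP_GSK Plat and Plau were 1.63-fold (1.51 to 1.77) and 1.53-fold (1.26 to 1.87) lower than in HIOP, whereas Anxa2 was 1.17-fold higher and S100a10 differed within counting error. Pla2g4a, the phospholipase whose activity annexins can restrain, had 120 and 199 counts in HIOP and HIOP_GSK, a ratio of 1.87 (1.48 to 2.36). The median of this list in HIOP_GSK over HIOP was -0.032, and 0 of 12 passed 2-fold. Of the formyl peptide receptor genes, Fpr1, Fpr2 and Fpr3 had 0 counts in CTL and 3 or fewer in each injured library. Myh9 had 36, 114 and 133 counts.

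The list of injury companions holds cytoskeletal and surface genes of reactive cells. All 18 passed the filter, and 13 were called higher and 0 lower in HIOP over CTL, at a median log2 ratio of 1.85. The shares of all genes compared were 9.0% and 8.04%, and the list was chosen with earlier results known. Tnfrsf12a, the receptor of the cytokine TWEAK, was 56.5-fold higher (35.6 to 95.6), Nes, the intermediate filament nestin, 21.4-fold (15.5 to 30.5), Lgals3, galectin 3, 10.99-fold (9.31 to 13.1), and Cd44, the hyaluronan receptor, 9.39-fold (8.77 to 10.1). In HIOP_GSK over HIOP 0 of the 18 passed 2-fold, and the median was 0.27. Lgals1, galectin 1, was 1.64-fold higher (1.47 to 1.84), Emp1, a membrane protein, 1.63-fold (1.51 to 1.76), and Vim, vimentin, 1.55-fold (1.51 to 1.59), while Tnfrsf12a was 1.74-fold lower (1.57 to 1.93). S100a4, at 3.33-fold, and S100a6, at 2.08-fold, had higher ratios in HIOP_GSK over HIOP than any of these 18 genes.

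Markers of cell types that can express the 8 genes also differed between the libraries, and their part in the results was not tested. The retina label was met by rod genes, whose 10 markers summed to 29729, 27652 and 20137 CPM in CTL, HIOP and HIOP_GSK. Neutrophil and monocyte markers (11 of 12 in the files, 10 above the filter) summed to 34.4, 641 and 671 CPM. S100a8, S100a9, Cxcr2, Csf3r, Cd14 and Coro1a had only 8.88 to 57.5 CPM each in HIOP. Most of that HIOP sum thus came from the few other genes of the list. All 10 markers above the filter were called higher in HIOP over CTL. In HIOP_GSK over HIOP 3 of them were called higher and 0 lower, where 4.56% and 1.69% of all genes were. Their log2 ratios there ranged from -0.95 to 1.54, with a median of 0.50, and S100a8 and S100a9 were below 0. The median log2 ratio of the 10 in HIOP over CTL was 4.65, with or without the 3 kept genes that had no count in CTL, S100a8, Cxcr2 and Mmp8, set at their bound. Retnlg, below the filter, also had 0 counts in CTL. Microglia and macrophage markers (12 of 12) summed to 98.7, 101 and 180 CPM, none at 0, with 3 of 12 called higher and 3 lower in HIOP over CTL. In HIOP_GSK over HIOP 9 of the 12 were called higher. Lens markers (10 of 10) summed to 1030, 2754 and 10050 CPM, and all 10 were called higher in HIOP_GSK over HIOP.

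Surface epithelium, which is rich in S100 and annexin transcripts, was represented by 9 of 10 markers, which summed to 367, 100.2 and 166 CPM. Of these 9, 6 were called lower in HIOP over CTL, and 6 were called higher in HIOP_GSK over HIOP. Kera had 0 counts in HIOP. Cdh1, which was in neither group of 6, had 48.0, 77.0 and 75.1 CPM in CTL, HIOP and HIOP_GSK, and so most of the epithelial sum in HIOP. Pericyte, smooth muscle and fibroblast markers (11 of 12 above the filter) summed to 503, 287 and 379 CPM, with 5 called lower in HIOP over CTL and Col1a2 at 0 in all 3 libraries. Endothelial markers (9 of 10) summed to 690.3, 474 and 532 CPM, and pigment epithelium markers (7 of 8 above the filter) to 572, 305 and 323 CPM. Müller glia markers (10 of 10) summed to 4817, 3096 and 3827 CPM, with 7 called lower in HIOP over CTL, and astrocyte markers (4 of 6 above the filter) to 697, 454 and 555 CPM. In HIOP_GSK over HIOP 4 of the 10 Müller glia markers and 2 of the 4 astrocyte markers were called higher and 0 lower. The log2 ratios of the Müller glia markers ranged from -0.27 to 2.92, with a median of 0.46. Those of the astrocyte markers ranged from -0.39 to 2.11, with a median of 0.57. The highest markers of these lists in HIOP_GSK over HIOP were Kcnj10 and Gfap. Gfap, the intermediate filament of astrocytes and reactive Müller glia, had 580, 642 and 2470 counts and was 4.33-fold higher there (3.97 to 4.73), and Kcnj10, a potassium channel of Müller glia, had 312, 12 and 93 counts and was 8.72-fold higher (4.76 to 17.5). Of the endothelial and the pericyte, smooth muscle and fibroblast markers, 1 of 9 and 2 of 11 were called higher in HIOP_GSK over HIOP, and 0 of 7 of the pigment epithelium. The 8 cone, 8 bipolar, 8 amacrine and 11 ganglion cell markers had median log2 ratios between -1.19 and -0.62 in HIOP over CTL and between -0.31 and 0.22 in HIOP_GSK over HIOP.

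Genes with the pattern most like that of the 8 were taken by their Euclidean distance on the pair of log2 ratios (HIOP over CTL, then HIOP_GSK over HIOP), which rest on only 3 libraries. The 5 nearest to the median of the 8 were Pdlim4 (53, 221 and 218 counts), Irf1 (255, 1059 and 1123), Fosb (43, 188 and 201), C1r (233, 993 and 928) and Htra1 (1063, 4126 and 4129), at distances of 0.064 to 0.12. The nearest gene to S100a4 was Spp1, osteopontin, with 116, 498 and 1330 counts, at a distance of 0.32, the farthest of the 8 nearest genes. The nearest to S100a6 was Ccl6, a chemokine gene, with 23, 333 and 544 counts, at 0.18. For Anxa3 it was Adgrl4, an endothelial adhesion receptor, with 74, 115 and 185 counts, at 0.039. For S100a10 it was Chst3 at 0.043, for S100a11 Nab2 at 0.019, for Anxa1 Cavin3 at 0.036, for Anxa2 Parp14 at 0.14 and for Anxa5 Fbl at 0.015.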

How the data were processed

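Retinal RNA of 3 libraries was analysed, 1 per group. The deposited files give whole-number counts and TPM, both made by the authors. The submitters' processing notes list RSEM 1.3.1, STAR 2.5.4b and the build Rnor_6.0, without stated roles. Per the labels' protocols, libraries were directional, but whether counting used the strand is not given in the sources used here. Totals were 16090064, 17221510 and 15132754 counts in CTL, HIOP and HIOP_GSK, so 3 counts correspond to 0.186, 0.175 and 0.197 CPM.

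Counts were scaled with TMM factors of edgeR 4.0.16 (R 4.3.3). Genes that reached a CPM of 1 in any library were compared. Log2 ratios used a prior count of 2, and calls a 2-fold limit. Ratios of named genes carry exact Clopper-Pearson intervals at 95% (SciPy 1.17.1). Reads carried no molecular identifiers and are not independent molecules, and intervals and floors cover counting error only. With 1 library per group no test was possible. The functions were tested on simulated counts. Differences between members' log2 ratios carry normal intervals from the counts.

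The members and gene lists were chosen with earlier results of these data known. Named genes were the members, the other S100 and annexin genes, up to 4 genes per related list and comparison with the largest interval bound nearer to no difference, and the nearest genes by pattern, among 10484 genes with a symbol that reached a CPM of 10 in any library; ESCRT, Pdcd6, Pdcd6ip, formyl peptide receptor, Myh9, Gfap and Kcnj10 values were added after they were seen. Of the genes this rule named, 1 is not reported here. Alternatives were totals without TMM, DESeq2 1.42.0 size factors, scaling without mitochondrial and the 20 most abundant genes, TPM with a pseudocount of 0.5, prior counts of 0.5 and 10, no filter, a filter at CPM 5, and a 1.5-fold limit. RefSeq tables of GRCr8 served for gene order and promoters only.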

Additional observations from a re-analysis of the deposited data

How the results depend on the processing

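For the 8 genes, no alternative changed the number at least 2-fold higher or lower in any comparison by over 1.5 times. Every median of the 8 stayed between the median of their lower interval ends and the median of their upper ends. That range is not a counting interval of the median itself. Of 144 values of single genes under other scalings, TPM or priors, 138 stayed within the counting interval, 6 left it, all with the deposited TPM, and 0 changed sign past 2-fold. No gene crossed 2-fold or changed sign. Counts over all genes did move. With a 1.5-fold limit, 2508 genes were higher and 2733 lower in HIOP over CTL, 1504 and 749 for HIOP_GSK over HIOP, and 2739 and 2585 in HIOP_GSK over CTL. Without the filter, 2113 were lower in HIOP over CTL, 1448 higher and 711 lower in HIOP_GSK over HIOP, and 2534 and 1826 in HIOP_GSK over CTL. With the filter at CPM 5, 773 were lower in HIOP over CTL, 336 higher and 114 lower in HIOP_GSK over HIOP, and 1055 and 594 in HIOP_GSK over CTL. With a prior count of 10, 153 were lower in HIOP_GSK over HIOP. No paired analysis was possible because each group has 1 library. S100a6 and S100a4 rest on 54 and 68 counts in CTL, so their ratios to CTL are the least precise of the 8.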

Other observations

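For some genes named above the deposited TPM and counts diverged. S100a1 had 178, 156 and 108 counts in CTL, HIOP and HIOP_GSK, and a TPM of 22.6, 3.51 and 15.1. S100a7l2 had 9 counts in HIOP_GSK and a TPM of 0. In HIOP over CTL S100a9 was 231-fold higher by counts and 403-fold by TPM, from 4 counts in CTL, and Plau and Plaur, with 9 counts and 1 count in CTL, also differed by over 1.5 times between the scales. For the 8 members the TPM ratios differed less from the count ratios. In HIOP over CTL S100a11 was 3.73-fold higher by TPM and 3.07-fold by counts, whose interval (2.69 to 3.52) lay below the TPM ratio. Anxa5 was 2.84-fold higher by TPM and 3.26-fold by counts, whose interval (2.97 to 3.59) lay above it. S100a6 was 11.1-fold higher by TPM and 12.8-fold by counts, within the interval (9.73 to 17.2).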
